A study of Homo sapiens with 2 samples.

Results

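The peaks described here lie at 4 microRNA loci, MIR17HG, MIR23A, MIR22HG and MIR21. They come from a map of chromatin bound by the zinc finger transcription factor ZFX. Members are every peak sharing at least 1 base with a fixed hg19 interval around each gene, which gave 9 peaks of the 14471 in the list. The intervals were on chromosome 13 (91995000 to 92007000, plus strand) for MIR17HG, on chromosome 19 (13945000 to 13956000, minus strand) for MIR23A, on chromosome 17 (1612000 to 1625000, minus strand) for MIR22HG and on chromosome 17 (57910000 to 57920000, plus strand) for MIR21. The loci were selected on the presence and scores of their peaks in this same list, so number, width and score are given as a description and were not tested. The map comes from DAOY, an established human medulloblastoma cell line, and the study held 2 samples of it. In one, sonicated chromatin was precipitated with a rabbit antibody raised against Zfx, and in the other the sheared chromatin was kept without precipitation as input. The labels name no treatment and no altered gene for either sample. Peaks of the 1 ZFX library were analysed, the input was not analysed here, and with 1 library there was no replicate check. The number of reads behind a peak is unknown, and no counting error could be attached to any score.

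Most microRNAs are cut from longer primary transcripts made by RNA polymerase II, and several microRNAs of a cluster can come from 1 such host transcript. A mature microRNA pairs with target messages mainly through its seed, bases 2 to 8, so microRNAs that share a seed are expected to share many targets. The MIR17HG transcript carries the miR-17-92 cluster, known as a growth-promoting cluster and a MYC target that is often overproduced in tumours, medulloblastoma among them. MIR23A lies within the host transcript MIR23AHG, which carries miR-23a, miR-27a and miR-24. These are known from blood cell differentiation and from tumours. MIR22HG is the host of miR-22, which has been described as both restraining and promoting tumour growth. MIR21 encodes miR-21, one of the microRNAs most often raised in tumours, which represses the tumour suppressor PDCD4. ZFX binds mainly at promoters rich in CpG and is known for its part in the self-renewal of stem cells.

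Mature sequences made from these loci are shown because they are products of the loci. Only the named mature form of each hairpin is listed, and any other form was left out. Each is from RefSeq on GRCh38.p14, runs 5′ to 3′, and has its seed in capitals.
hsa-miR-17-5p: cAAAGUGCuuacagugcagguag
hsa-miR-18a-5p: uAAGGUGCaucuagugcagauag
hsa-miR-19a-3p: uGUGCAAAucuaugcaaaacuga
hsa-miR-20a-5p: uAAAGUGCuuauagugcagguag
hsa-miR-19b-3p: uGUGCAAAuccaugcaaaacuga
hsa-miR-92a-3p: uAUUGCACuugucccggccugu
hsa-miR-23a-3p: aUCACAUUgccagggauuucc
hsa-miR-27a-3p: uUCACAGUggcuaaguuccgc
hsa-miR-24-3p: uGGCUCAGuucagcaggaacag
hsa-miR-22-3p: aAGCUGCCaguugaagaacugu
hsa-miR-21-5p: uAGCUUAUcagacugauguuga

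The 11 sequences carry 9 different seeds. Within the MIR17HG transcript, miR-17-5p and miR-20a-5p share one seed and miR-19a-3p and miR-19b-3p share another, so its 6 listed microRNAs have 4 seeds. The 3 listed microRNAs of the MIR23AHG transcript have 3 seeds. The seeds of miR-22-3p and miR-21-5p are not found in any other of the 11. Among the 2370 human mature microRNA names in the table, 8 carry the seed of miR-17-5p, 6 that of miR-92a-3p and 3 that of miR-23a-3p. Those of miR-24-3p and miR-22-3p are each carried by 1 name. Names were counted, and not the loci or hairpins that make them.

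Each of the 4 intervals held at least 1 peak. For reference, 4.15% of 10 kb windows laid end to end along all chromosomes held a peak, 1.94% on chromosome 13, 9.48% on chromosome 17 and 12.7% on chromosome 19. Since the loci were proposed with the peaks known, nothing is read from that difference. The MIR23A interval held 4 peaks, the MIR22HG interval held 3, and the MIR17HG and MIR21 intervals held 1 each. Peaks covered 7313 bp of the MIR23A interval, or 66.5% of its length. They covered 1586 bp of the MIR22HG interval (12.2%), 1362 bp of the MIR17HG interval (11.3%) and 289 bp of the MIR21 interval (2.89%). MIR23A thus accounted for 69.3% of the 10550 covered bases.

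**Figure D1:**
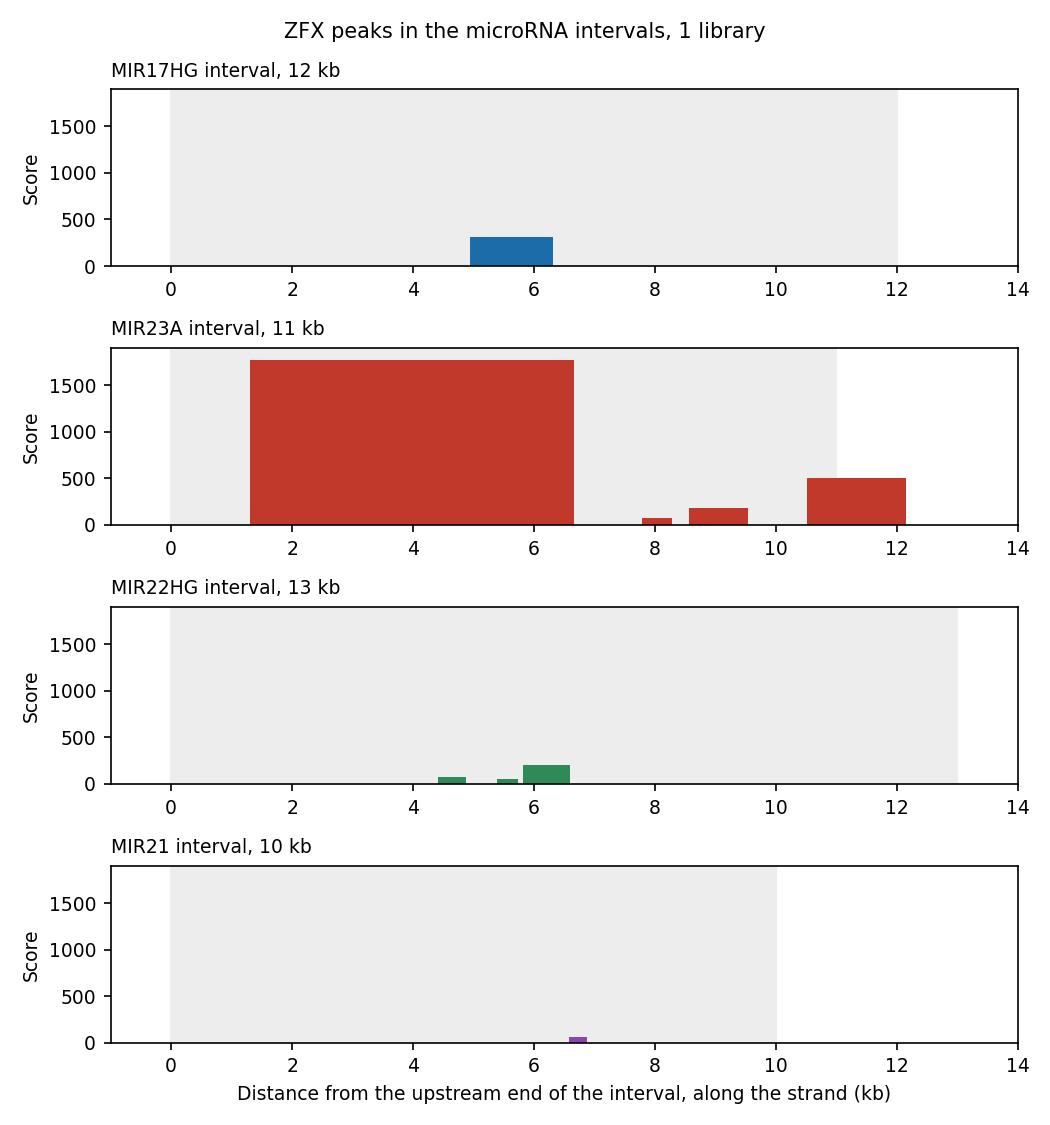
Each bar is 1 peak, drawn to scale along the strand of the gene, with distance in kb from the upstream end of the interval on the x axis and the authors' score on the y axis. Grey marks the interval. The widest peak, in the MIR23A interval, reaches 1775, and the MIR21 peak at 66.0 is barely visible on the same scale.

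The 9 peaks spanned much of the range of the list. Their scores ran from 50.5 to 1775 with a median of 187, and the 14471 peaks of the list ran from 50 to 3233 with a median of 109. Their widths ran from 289 to 5347 bp with a median of 780 bp, against 481 bp in the list. Of the 9, 5 scored above the list's median, as 49.9% of the list did, and 3 lay in the top quartile of scores, as 25.0% of the list did by definition. Wider than 1 kb were 3 of the 9, against 9.20% of the list. Those of 5347 and 1637 bp were both MIR23A members, so these 3 are not separate observations. At most 1 kb from another peak were 6 of the 9, against 32.1% of the list. These 6 come from only 2 loci, MIR23A and MIR22HG, so they are not separate observations either.

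The MIR17HG interval held a single peak in its middle part. It lay on chromosome 13 (91999947 to 92001308), was 1362 bp wide and scored 317, above 83.4% of the list. By width it ranked 2 among the 209 peaks of chromosome 13, and by score 24. It began 4947 bp from the upstream end of the interval and ended at 6308 bp. It also stood alone. The nearest peak upstream lay 11.1 Mb away, at 80915079 to 80915732 with a score of 144, and the nearest downstream 3.20 Mb away, at 95200988 to 95201463 with a score of 162. Chromosome 13 carried 2.20 peaks per Mb between its outermost peaks, against 11.6 on chromosome 17 and 16.6 on chromosome 19. No other peak was listed within 500 kb of the interval.

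The MIR23A interval was the most heavily covered. Given from upstream to downstream along the minus strand, its first peak lay on chromosome 19 (13949343 to 13954689), was 5347 bp wide and scored 1775. That score ranked 103 in the list and 8 among the 975 peaks of the chromosome. Only 1 peak of the list was wider, at 9036 bp on chromosome 21 with a score of 3100. The next 18 widest peaks of the list, of 2418 to 3481 bp, had a median score of 905, and 3 of them scored above 1775. After a gap of 1125 bp came a peak of 506 bp (13947712 to 13948217) that scored 80.3, below the list's median. A peak of 970 bp (13946464 to 13947433) followed after 278 bp and scored 187. The last, of 1637 bp (13943853 to 13945489), followed after 974 bp and scored 509, rank 1153 in the list. That peak crosses the downstream limit, with 490 bp (29.9%) inside the interval and 1147 bp outside. It is a member only because any shared base counts. The scores did not fall steadily along the strand, since the peak crossing the limit was the second highest of the 4.

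The peaks of the MIR23A interval belonged to a longer run. Just outside it, the nearest peak upstream began 1.10 kb beyond the limit (13957102 to 13957689) and scored 227, and the nearest downstream ended 2.35 kb beyond it (13942305 to 13942649) and scored 53.8. When peaks at most 2 kb apart were joined, the run held 5 peaks over 12385 bp, and 4 of the 11690 joined regions of the list, itself included, were as long or longer. At 3 kb it held 9 peaks over 20478 bp (13942305 to 13962782), and 3 of 11496 joined regions were as long or longer and 5 held as many peaks or more. The 5 peaks of that run outside the interval scored at most 367. For coverage, 1 of 266933 windows of the same length laid end to end along the chromosomes was covered by as many bases, on chromosome 21. None on chromosome 19 was. Such windows can split a run of peaks, whereas the interval was placed around one, so the 2 are not alike.

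The MIR22HG interval held a tight group of weak to moderate peaks. From upstream to downstream along the minus strand, they lay on chromosome 17 at 1620131 to 1620591 (461 bp, score 71.1), 1619272 to 1619616 (345 bp, score 50.5) and 1618410 to 1619189 (780 bp, score 199). Gaps of 514 and 82 bp separated them, so all 3 lay within 2182 bp. The last was the strongest and lay above 71.6% of the list, and the middle one lay close to the lowest score of the list, 50, with 1.25% of peaks below it. The nearest peak upstream of the interval lay 2.77 kb beyond its limit (1627774 to 1627997) and scored 65.7. The nearest downstream lay 23.7 kb beyond it (1587489 to 1588279) and scored 446, higher than any of the 3 inside. In the RefSeq gene table, MIR22HG lies between TLCD2 on the same strand and WDR81 on the opposite strand, so that MIR22HG and WDR81 are transcribed away from each other, head to head. Which of these starts the peaks lie closest to was not tested, because the table is on GRCh38.p14 and the peaks are on hg19.

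The MIR21 interval held 1 narrow, low-scoring peak, so that its highest score was the lowest among the 4 loci. It lay on chromosome 17 (57916587 to 57916875), was 289 bp wide and scored 66.0, above 25.7% of the list. It ranked 701 by score and 802 by width among the 942 peaks of that chromosome. It began 6587 bp from the upstream end of the interval. The nearest other peaks were 55.3 kb away upstream (57861009 to 57861292, score 94.2) and 53.4 kb away downstream (57970303 to 57971149, score 542). In the gene table MIR21 lies within VMP1, a protein-coding gene needed for autophagy. Within 100 kb of the interval were 2 other peaks, against 12 for MIR23A, 9 for MIR22HG and 0 for MIR17HG.

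**Figure D2:**
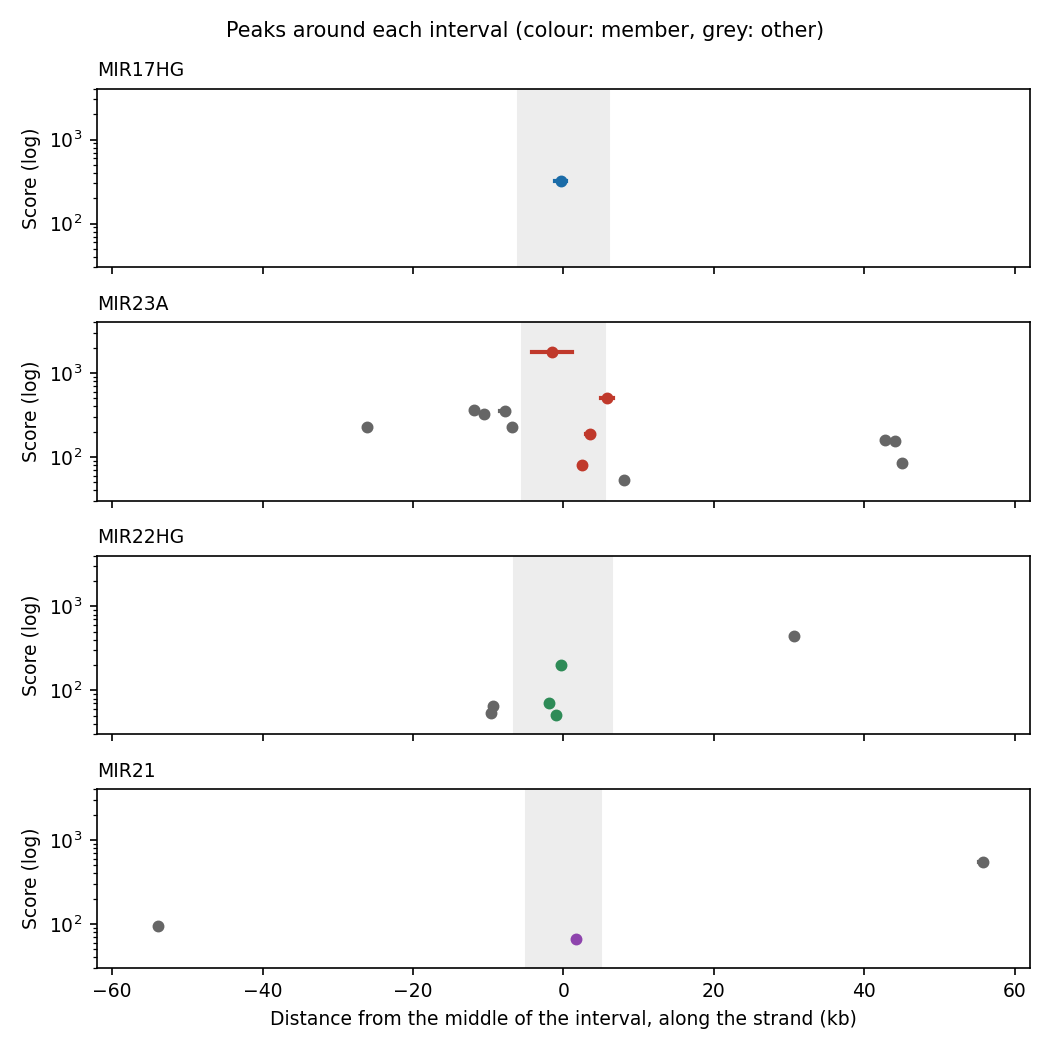
Lines span each peak and points mark its middle, with distance in kb from the middle of the interval along the strand on the x axis and the authors' score on a log scale on the y axis. Members are coloured, other peaks are grey, and the grey band is the interval. The MIR17HG peak at 317 has no neighbour in view, whereas the MIR23A members sit in a run with other peaks of up to 367.

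Ordered by the highest score in each interval, the loci ran MIR23A with 1775, MIR17HG with 317, MIR22HG with 199 and MIR21 with 66.0. Each value is 1 peak of 1 library, so it cannot be said which neighbours in this order would differ in a repeat. The highest score at MIR23A was 5.60 times that at MIR17HG, a ratio of scores whose unit the sources used here do not give.

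Wide peaks of this list tend to score high, so each member was also set against the 200 peaks nearest to it in width. Of the 9, 2 scored above the median of such peaks. By definition, about as many peaks of like width score above such a median as below it. The share of the whole list above its like-width median was not computed. Members of the same locus are not separate observations, so nothing is read from this count. The widest MIR23A peak scored 1775 against a median of 836, although nearly all of the 200 were narrower (1572 to 9036 bp). The MIR21 peak scored 66.0 against 61.4 and lay above 67.0% of peaks of its width. The MIR17HG peak scored 317 against 556 and lay above 14.5% of them. The other 3 MIR23A peaks scored 509, 187 and 80.3 against 676, 354 and 113. The MIR22HG peaks scored 199, 71.1 and 50.5 against 264, 102 and 65.6.

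**Figure D3:**
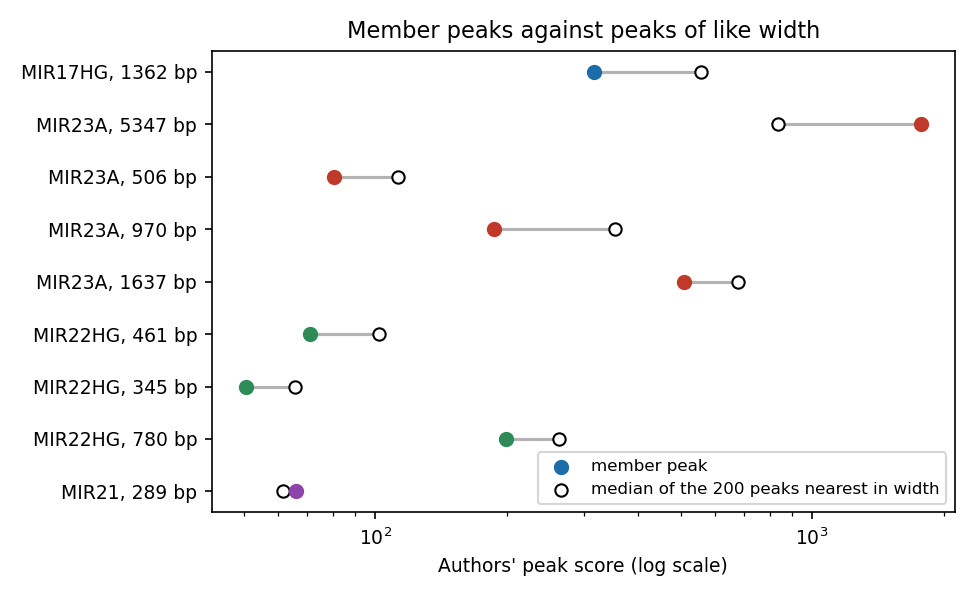
Filled points are the scores of the 9 members, labelled with locus and width, and open circles the median score of the 200 peaks of the list nearest in width, on a log axis. The widest MIR23A peak and the MIR21 peak lie to the right of their open circle, and the other 7 lie to the left.

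**Figure D4:**
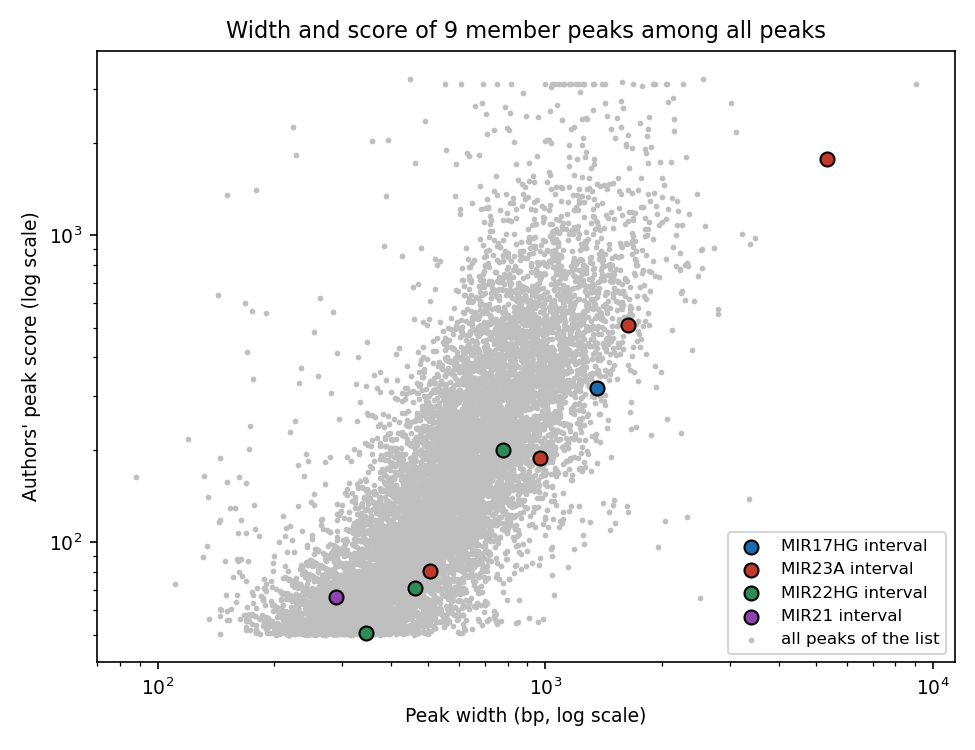
Peak width in bp on the x axis and the authors' score on the y axis, both log scales, with the 9 members coloured by locus over all 14471 peaks in grey. The members run along the cloud from the MIR21 peak (289 bp, 66.0) to the widest MIR23A peak (5347 bp, 1775), which lies apart from it by width.

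The starts of the host transcripts are shown because the loci are thought of as host promoters. They are RefSeq windows on GRCh38.p14, 250 bases before to 50 after each gene's start, 5′ to 3′ on the gene's strand, with GGCCT and its reverse complement AGGCC in capitals. Each is a part of AGGCCT, the letters known from the ZFX motif, and neither is that motif itself. Whether a peak covers them was not tested, since the peaks are on hg19 and positions were not carried between builds.
MIR17HG, chr13:91347437-91347736, plus strand: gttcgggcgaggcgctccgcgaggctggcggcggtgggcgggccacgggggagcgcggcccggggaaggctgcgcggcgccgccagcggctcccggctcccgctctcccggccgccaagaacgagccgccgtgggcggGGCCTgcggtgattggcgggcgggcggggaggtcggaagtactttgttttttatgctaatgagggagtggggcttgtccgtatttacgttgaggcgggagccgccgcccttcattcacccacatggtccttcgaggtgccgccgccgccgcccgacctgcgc
MIR23AHG, the host transcript of MIR23A, chr19:13842869-13843168, minus strand: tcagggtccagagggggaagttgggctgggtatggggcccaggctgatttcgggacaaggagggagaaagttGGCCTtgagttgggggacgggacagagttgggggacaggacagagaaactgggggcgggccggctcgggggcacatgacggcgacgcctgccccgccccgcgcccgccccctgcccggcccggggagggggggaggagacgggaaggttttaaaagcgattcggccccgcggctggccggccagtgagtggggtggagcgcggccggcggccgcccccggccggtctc
MIR22HG, chr17:1716161-1716460, minus strand: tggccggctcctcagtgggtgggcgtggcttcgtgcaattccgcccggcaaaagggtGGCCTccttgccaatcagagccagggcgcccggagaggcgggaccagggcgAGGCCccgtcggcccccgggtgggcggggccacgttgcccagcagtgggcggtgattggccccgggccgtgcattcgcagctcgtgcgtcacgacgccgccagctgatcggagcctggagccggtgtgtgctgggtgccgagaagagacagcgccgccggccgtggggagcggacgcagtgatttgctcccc

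All 3 windows are rich in G and C. The share of G and C was 73.0% at MIR17HG and 72.3% at both MIR23AHG and MIR22HG, against a median of 58.7% over the 35116 promoters of the table. Of all promoters, 86.4% had a lower share than MIR17HG, and 84.9% a lower share than MIR23AHG and MIR22HG. MIR17HG held 42 CpG pairs, MIR22HG 32 and MIR23AHG 27, against a median of 14. Fewer CpG pairs than these were held by 94.2%, 81.1% and 71.8% of all promoters, in that order. The window of VMP1 had 59.3% G and C and 22 CpG pairs. It is not shown, because the start of VMP1 lies at the other end of that gene from MIR21. Searched on both strands, GGCCT occurred once in the MIR17HG and MIR23AHG windows, at 2 places in the MIR22HG window and not in the VMP1 window, and in 56.2% of all promoters. AGGCCT, which reads the same on both strands and contains GGCCT, was in none of the 4 windows and in 10.9% of all promoters. The longer AGGCCTAG, which contains both, was in none of the 4 and in 0.994% of all. A match is a run of letters and does not show a bound site.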

How the data were processed

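The 2 samples of DAOY cells, a ZFX ChIP-seq library and its input, were grouped by the antibody in the labels. The authors deposited 1 peak list without a header, with a start, an end and a score per peak. The score has no stated unit and is the authors' own, and was used only to describe and rank peaks within the list. No peak scored below 50, and several share a score of exactly 3100, so scores near the top do not separate all peaks. Peak names begin with MACS, and nothing in the labels says how that caller was run. Bowtie2 2.0.0 and hg19 appear, without roles, in the submitters' processing notes; hg19 was taken as the build of the positions. Starts were read as counted from 0 and are printed counted from 1.

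Members were all peaks sharing 1 base or more with an interval, and every member is named. Members, lists and motifs were chosen with earlier results of these data known. Overlaps, covered length, ranks, gaps, joined runs and windows were computed with Python 3.11.15, numpy 2.4.6 and pandas 2.3.3. Windows were laid end to end from the first to the last peak of each chromosome. Overlaps, covered length, joined runs and windows were checked on a small made-up list with known answers, and ranks and gaps were not. Figures were drawn with matplotlib 3.10.9. No test was run and no interval could be given, since 1 library has peaks and its depth is unknown. Sequences were matched by symbol or microRNA name in RefSeq tables on GRCh38.p14; no position was compared between builds. The alternatives were other overlap rules, score thresholds, interval limits, joined peaks, windows and motifs.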

Additional observations from a re-analysis of the deposited data

How the results depend on the processing

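Of 85 alternative values for 14 results, 68 kept the peak, or stayed within 1.5 times the count, length or share, and 17 did not. The MIR23A count of 4 was not reproduced in any alternative. It was 3 by peak midpoint, by whole peak, above the list's median score and with limits shortened by 1 kb. These values of 3 are within 1.5 times of 4 and so are among the 68. The MIR17HG interval held 1 peak in all 7 alternatives, and the highest score of each interval was unchanged in every alternative that left it a peak. Much of this sameness was fixed in advance. The MIR17HG peak lies well inside its interval, in the top quartile of scores and far from other peaks. A score threshold cannot change the highest score. Where no peak was left, the highest score was not counted among the 85. Limited to scores above the list's median, MIR22HG held 1 peak over 780 bp and MIR21 held 0 peaks over 0 bp. In the top quartile of scores, MIR23A held 2 peaks, and MIR22HG and MIR21 held 0 peaks over 0 bp. Intervals widened by 5 kb held 8 peaks over 10984 bp at MIR23A and 5 peaks at MIR22HG. Joining peaks at most 1 kb apart left 2 regions at MIR23A and 1 at MIR22HG. Windows with a peak made up 7.56% at 20 kb and 2.41% for scores above the median. GGCCT was in 3 of 4 promoter windows, where AGGCCT was in 0. The window without GGCCT was that of VMP1, whose start lies at the other end of that gene from MIR21. The direction of each of these shifts follows from how the alternative is built, whereas its size depends on the peaks or letters present. No paired analysis was possible because 1 library has peaks. With depth unknown, sites too weak to be called could not be assessed. The peaks were not screened for repeated sequence or raised copy number, and their part was not tested.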
